A study of Mus musculus with 6 samples.

Results

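The vacuolar H+-ATPase (V-ATPase) and the mTORC1 machinery that sits beside it on the lysosome were followed in 2 sorted populations of dysplastic stem cells. The genes were picked out by a rule on symbols: V-ATPase subunits and accessory proteins (Atp6v and Atp6ap symbols and Tcirg1), the Ragulator subunits Lamtor1 to Lamtor5, Rraga, Rragc, Rragd, Flcn, Fnip1, the MiT transcription factors Tfeb, Tfe3 and Mitf, and Mtor and Rptor. They numbered 42 of the 23420 genes in the count files. A mean of at least 1 CPM over the 6 libraries (CPM, reads of the gene per 1000000 reads assigned to genes) was reached by 32 of them. Of the other 10, 5 had no read in any library and 5 had reads but stayed below that level.

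The V-ATPase is a rotary proton pump. Its cytosolic V1 sector hydrolyses ATP and turns its membrane-embedded V0 sector, which moves protons into lysosomes, endosomes and the Golgi and so acidifies them. The same lysosomal surface carries the pentameric Ragulator, which anchors the Rag GTPases; when amino acids are plentiful, these recruit mTORC1, the growth-controlling kinase complex of Mtor and Rptor. Active mTORC1 keeps TFEB and TFE3 in the cytoplasm, and when they are released they enter the nucleus and bind CLEAR elements, E-box-like sites near the starts of lysosomal genes, V-ATPase genes among them.

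The cells were grown as Meta4 organoids, an epithelial mouse organoid line that the submitters describe as dysplastic, and DP-DSCs and TP-DSCs, its dysplastic stem cell subpopulations, were separated by fluorescence-activated sorting. The labels do not spell out what DP and TP stand for. All 6 libraries came from the same organoid line, with 3 libraries in each group and no treatment or genotype contrast. The labels call the samples independent but do not state whether these were different cultures, and the p-values here therefore describe the spread of these 6 samples, part of which may be technical.

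Reads assigned to genes ranged from 17015581 to 32671039 per library, and TP-DSC libraries held reads for fewer genes (10571 to 10982) than DP-DSC libraries (12504 to 14434). Library names carry the number 3840 (1 library of each group) or 4140 (2 of each), whose meaning is not given. The epithelial genes Epcam, Cdh1, Krt8, Krt18, Krt19 and Cldn7 summed to 8291 to 10099 CPM in DP-DSCs and 7730 to 9296 CPM in TP-DSCs. Among 4 genes of proton-secreting intercalated cells, which use special V-ATPase isoforms, the highest sum in any library was 0.222 CPM. The 7 osteoclast and macrophage genes summed to 5.75 to 60.6 CPM in DP-DSCs and 12.97 to 33.9 CPM in TP-DSCs, mostly Cd68 and Acp5, while Ptprc, the pan-leukocyte gene, did not exceed 0.092 CPM. In the TP-DSC libraries Ptprc was listed at 0. In the parietal cell list Atp4b was listed at 0 in every library and Atp4a, the other proton pump subunit, did not exceed 8.30 CPM. The list summed to 99.99 CPM in DP-DSCs replicate 1 and 49.1 CPM in TP-DSCs replicate 1, of which Gif made up 97.7 and 40.8 CPM; in mice Gif is known as a gene of chief cells, so the sum is not a parietal level. The melanocyte, fibroblast and endothelial lists did not exceed 1.32, 3.19 and 1.15 CPM.

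Because MiT factors are known to act through CLEAR elements, the starts of the genes were searched for the letters of that element. RefSeq promoters (build GRCm38.p6, 250 bases before to 50 after a gene's start) were found for 33 of the 42 genes. The 8-base core TCACGTGA, which reads the same on both strands, was present at 3 of these 33 genes (9.09%), against 1.13% of all 27025 genes in the table. The related M-box TCATGTGA, searched on both strands, was also present at 3 of 33 (9.09%), against 1.15% of all genes. The 6-base E-box CACGTG, which lies inside TCACGTGA, was present at 8 of 33 (24.2%), against 8.09%. The 10-base palindrome that extends the core by a base on either side was at 0 of 33 (0.0%), against 0.37% of all genes. A match is only a run of letters, and no binding was measured here. The sites are shown with 11 bases on either side, 5′ to 3′ on the gene's own strand, with the searched letters in capitals, because they are the matches to the element through which MiT factors are known to bind.
Atp6v1a: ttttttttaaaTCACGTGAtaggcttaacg
Atp6v0d1: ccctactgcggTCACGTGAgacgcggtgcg
Atp6v0e: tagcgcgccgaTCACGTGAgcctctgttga
Atp6v0c: gcggggacagaTCATGTGAcgcgagcgcgg
Lamtor1: ggacaacaaaaTCATGTGActcgccccgcc
Lamtor2: tccttgagcgaTCACATGAaactacgattc
The Atp6v1a window lies at chr16:44139373-44139402 on the minus strand, and its site begins 132 bases before the gene's start. The Atp6v0d1 window (chr8:105566050-105566079, minus strand) overlaps the start, with its site beginning 4 bases before it. The Atp6v0e site (chr17:26676387-26676416, plus strand) begins 2 bases after the RefSeq start. The M-box of Lamtor1 (chr7:101905728-101905757, plus strand) begins 98 bases before the start, and that of Lamtor2 (chr3:88553041-88553070, minus strand), which reads as the reverse complement, 108 bases before. The Atp6v0c site (chr17:24169449-24169478, minus strand) begins 17 bases before 1 of the gene's annotated starts. All these distances are from RefSeq starts; in GENCODE M21 the gene spans of Atp6v1a, Atp6v0e, Atp6v0c and Lamtor2 begin farther upstream and take in the site.

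The V1 sector was transcribed at similar levels in both populations, and 9 of its 13 genes reached 1 CPM. Atp6v1b2, the widely used B subunit that forms part of the catalytic ring, was the most abundant. Its level was 437, 287 and 247 CPM in DP-DSCs replicates 1, 2 and 3, and 334, 165 and 212 CPM in TP-DSCs replicates 1, 2 and 3. The groups overlapped, with TP-DSCs replicate 2 the lowest and DP-DSCs replicate 1 the highest library. The log2 fold change, here always TP-DSCs over DP-DSCs, was -0.45 ± 0.37 (SE; 95% interval -1.31 to 0.41; edgeR adjusted p = 0.999 over all genes). In bulk samples such as these, fewer cells of a type and less RNA per cell cannot be told apart. Its catalytic partner Atp6v1a, the A subunit that binds ATP, was among the steadiest genes, with 246, 229.5 and 201 CPM in DP-DSCs and 210.0, 201 and 212 CPM in TP-DSCs. Its log2 fold change was -0.13 ± 0.17, and its 95% interval ran from -0.54 to 0.28.

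The stalk subunits of V1 varied from library to library in different ways. Atp6v1e1, the E subunit of the peripheral stalks, stood at 214, 203 and 235.5 CPM in DP-DSCs and at 147, 137 and 238 CPM in TP-DSCs. TP-DSCs replicate 3 was thus the highest library and the other two TP-DSC libraries the lowest, and the log2 fold change was -0.35 ± 0.24. Atp6v1g1, the G subunit that pairs with E, stood at 109, 147 and 153 CPM in DP-DSCs and 152, 121 and 172 CPM in TP-DSCs (log2 fold change 0.12 ± 0.22). Atp6v1h, the H subunit that restrains ATP hydrolysis by free V1, stood at 96.0, 145 and 122 CPM in DP-DSCs and 97.2, 198 and 123 CPM in TP-DSCs (0.18 ± 0.27). Without TP-DSCs replicate 2, its highest library, the log2 fold change of Atp6v1h turned to -0.12. Atp6v1c1, the C subunit that joins V1 to V0, stood at 55.0, 115 and 75.1 CPM in DP-DSCs and 58.9, 94.6 and 100.005 CPM in TP-DSCs, with the groups interleaved. The D and F subunits of the central stalk, Atp6v1d and Atp6v1f, had log2 fold changes of -0.01 and 0.06. Summed over the 9 genes, V1 reads came to 1332, 1337 and 1251 CPM in DP-DSCs and 1205.5, 1151 and 1244 CPM in TP-DSCs. On CPM these sums did not overlap, but the nearest, 1251 CPM in DP-DSCs replicate 3 and 1244 CPM in TP-DSCs replicate 3, lay close together. CPM leaves out the TMM scaling factors of the edgeR fit, from 0.929 in TP-DSCs replicate 1 to 1.06 in DP-DSCs replicate 2. With each sum divided by its library's factor, TP-DSCs replicate 1 lies above DP-DSCs replicate 2, so the groups overlap after that scaling. The sums are also dominated by the few most abundant genes.

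Several V1 subunits have isoforms used in specialised cells, and these were scarce or absent. Atp6v1b1, the B isoform of intercalated cells, stood at 2.27, 1.81 and 1.04 CPM in DP-DSCs and had no read in any TP-DSC library. It was the member with the smallest p (unadjusted p = 0.00232), and edgeR put its adjusted p at 0.121. Its mean of 0.852 CPM over all libraries kept it below the level for reporting. With reads pooled by group, it stood at 1.74 CPM in DP-DSCs. That was 42.5-fold above a floor of 3 counts over the TP-DSC libraries (0.0411 CPM). The edgeR log2 fold change was -8.57 (95% interval -12.5 to -4.59), which takes in the spread between libraries. Its end nearer 0 is a TP-DSC level of 0.0414 of the DP-DSC level. The floor covers counting error only, since reads are not independent molecules. DESeq2 on the same genes gave it an adjusted p of 0.249, and DESeq2 on all genes with reads, an alternative added after the data were seen, gave 0.0418. Among the 692 genes within 1.5-fold of its DP-DSC level, 68.2, 73.8 and 74.1% lacked reads in replicates 1, 2 and 3 of TP-DSCs, and 39.5% lacked them in all 3, so an absence at this level was common; the part of library complexity in it was not tested. Atp6v1c2, the alternative C isoform, was likewise present only in DP-DSCs, at 0.307, 1.16 and 0.111 CPM, and was too scarce to test. Atp6v1g2, the G isoform of neurons, had 11.1 CPM in TP-DSCs replicate 2, at most 2.18 CPM in DP-DSCs and no reads in the other two TP-DSC libraries. Its 95% interval of log2 fold change ran from -5.16 to 8.04. Its exons overlap those of Nfkbil1 on the other strand, so without a stated strand setting its reads cannot be told apart from those of its neighbour. Atp6v1e2 and Atp6v1g3 had no reads.

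Below V1 in the membrane, most V0 genes had slightly lower means in TP-DSCs, and none of their groups was separated. Of the 10 V0 genes 7 reached 1 CPM, and 6 of these had a log2 fold change below 0, with a median of -0.29. Atp6v0b, the proteolipid c″ of the rotor ring, stood at 143, 199 and 179.5 CPM in DP-DSCs and at 148, 154 and 142 CPM in TP-DSCs. DP-DSCs replicate 1 was as low as the TP-DSC libraries, and the log2 fold change was -0.24 ± 0.17 (95% interval -0.65 to 0.16). Atp6v0d1, the d subunit that couples the rotor to V1 and whose RefSeq promoter carries the core shown above, stood at 96.9, 113 and 121 CPM in DP-DSCs and 79.6, 125 and 69.2 CPM in TP-DSCs (-0.29 ± 0.25). Atp6v0e, a small membrane subunit whose RefSeq promoter also carries the core, stood at 69.7, 108 and 103 CPM in DP-DSCs and 92.9, 57.5 and 75.9 CPM in TP-DSCs (-0.30 ± 0.28). Its difference was 0.44 between the libraries numbered 3840 and -0.71 among those numbered 4140 (differences of mean log2 CPM). The tissue-restricted alternatives Atp6v0d2, of osteoclasts, and Atp6v0e2 averaged 0.239 and 0.0493 CPM.

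The main ring proteolipid c, Atp6v0c, had no read in any of the 6 libraries, although a working V0 ring is built largely from it. The same holds for its processed pseudogene Atp6v0c-ps2. Of the 50-base stretches of the Atp6v0c transcript in GENCODE M21, 12.2% recur in its pseudogenes Atp6v0c-ps1 and Atp6v0c-ps2, and of those of Atp6v0c-ps2, 90.1% recur elsewhere. The 0 is a value of these count tables and gives no level for the gene. What the counting did with its reads, and whether the shared stretches played a part, was not tested. Exons of Atp6v1e1, Atp6v1h, Atp6v0b, Atp6v0a2, Atp6v0a4, Lamtor1, Rragc and Rptor overlap those of a gene on the other strand, and the reads of such pairs cannot be told apart without a stated strand setting. Atp6v0a4 also overlaps D630045J12Rik on its own strand. Rragb, a Rag GTPase outside the chosen set, was also listed at 0 throughout, as were 8244 of the 23420 genes. Other genes of the set share stretches with pseudogenes too, from 12.6 to 19.2% for Atp6v1f, Lamtor5, Lamtor1, Lamtor3 and Atp6v1g1. Their means over the 6 libraries ran from 36.4 CPM (Lamtor5) to 142 CPM (Atp6v1g1), and their counts could have lost or gained reads in this way.

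The a subunit steers the pump to its membrane and exists in 4 isoforms, which were compared per kilobase of the longest coding transcript. Atp6v0a1 made up most of them in every library, with 71.5, 65.4 and 64.2% in DP-DSCs and 71.2, 65.4 and 70.4% in TP-DSCs. Tcirg1, the a3 isoform best known from osteoclasts and late lysosomes, came next on the means. It made up 20.02% ± 0.641 of the DP-DSC and 16.4% ± 2.98 of the TP-DSC total (SD, n = 3 each), and the groups overlapped. In TP-DSCs replicate 2 its share (16.2%) lay below that of Atp6v0a2 (18.4%). Atp6v0a2, an isoform of the Golgi and early endosomes, made up 11.6% ± 4.04 and 13.6% ± 4.28 (SD, n = 3 each), and the groups overlapped. In CPM, Atp6v0a1 stood at 199.9, 209 and 124 in DP-DSCs and 182, 217 and 134 in TP-DSCs (log2 fold change -0.01 ± 0.27; 95% interval -0.65 to 0.63). Tcirg1 stood at 41.1, 48.6 and 30.2 CPM in DP-DSCs and 26.3, 40.7 and 28.1 CPM in TP-DSCs (-0.35 ± 0.31). Atp6v0a2 stood at 26.0, 56.9 and 37.3 CPM in DP-DSCs and 41.9, 81.1 and 25.6 CPM in TP-DSCs (0.30 ± 0.46), so that TP-DSCs held both the highest and the lowest library. Atp6v0a4, the isoform of intercalated cells, had 4.82, 3.18 and 1.11 CPM in DP-DSCs, 6.21 CPM in TP-DSCs replicate 1 and no reads in the other two. Of 761 genes within 1.5-fold of its DP-DSC level, 55.7 and 59.1% also lacked reads in these libraries.

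**Figure D1:**
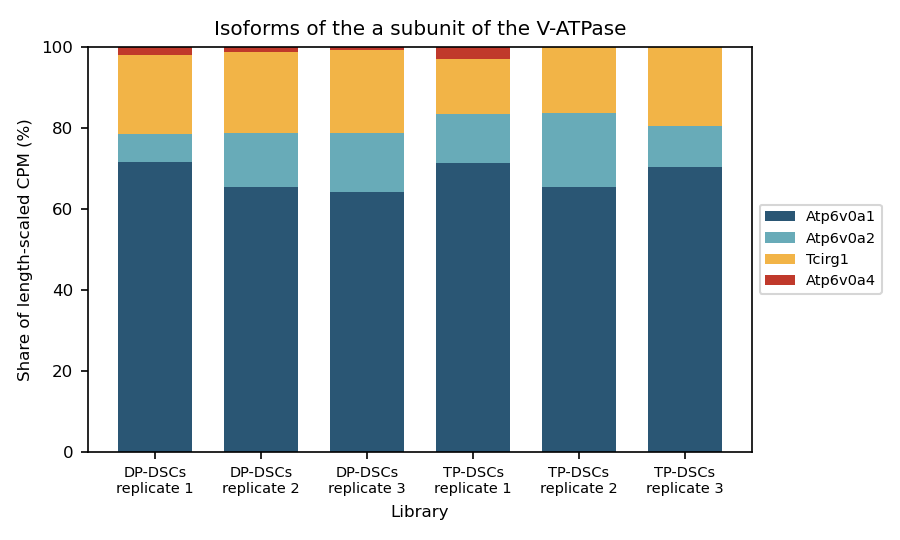
Share of each a subunit isoform (y axis, % of CPM per kilobase summed over the 4 isoforms) in each of the 6 libraries (x axis). Atp6v0a1 made up 64.2 to 71.5% in every library, and Atp6v0a4 was present in 4 of the 6.

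Of the 32 genes that reached 1 CPM, the accessory subunit Atp6ap1 was the 1 whose libraries did not overlap between the groups. Over all 11925 genes tested the share without overlap was 12.4% (8.56% lower in TP-DSCs), so this count did not stand above the background. Atp6ap1, also called Ac45, assists V0 assembly and helps guide the pump through the secretory pathway; it lies on chromosome X from 74297097 to 74304721 (GRCm38). Its level was 194, 272 and 227 CPM in DP-DSCs and 163, 129 and 189 CPM in TP-DSCs. The highest TP-DSC library, replicate 3, lay just below the lowest DP-DSC library, replicate 1. The log2 fold change was -0.53 ± 0.21 (95% interval -1.02 to -0.05; unadjusted p = 0.0358). The edgeR adjusted p was 0.688, and it ranged from 0.323 to 1.0 over the alternatives. The difference was -0.22 between the 2 libraries numbered 3840 and -0.71 among the 4 numbered 4140. Its partner Atp6ap2, the (pro)renin receptor, which also takes part in pump assembly, stood at 109, 151 and 113 CPM in DP-DSCs and 111, 94.5 and 115 CPM in TP-DSCs (-0.22 ± 0.19). Only DP-DSCs replicate 2 stood clear of the rest for Atp6ap2. Atp6ap1l, a related gene, had no reads.

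**Figure D2:**
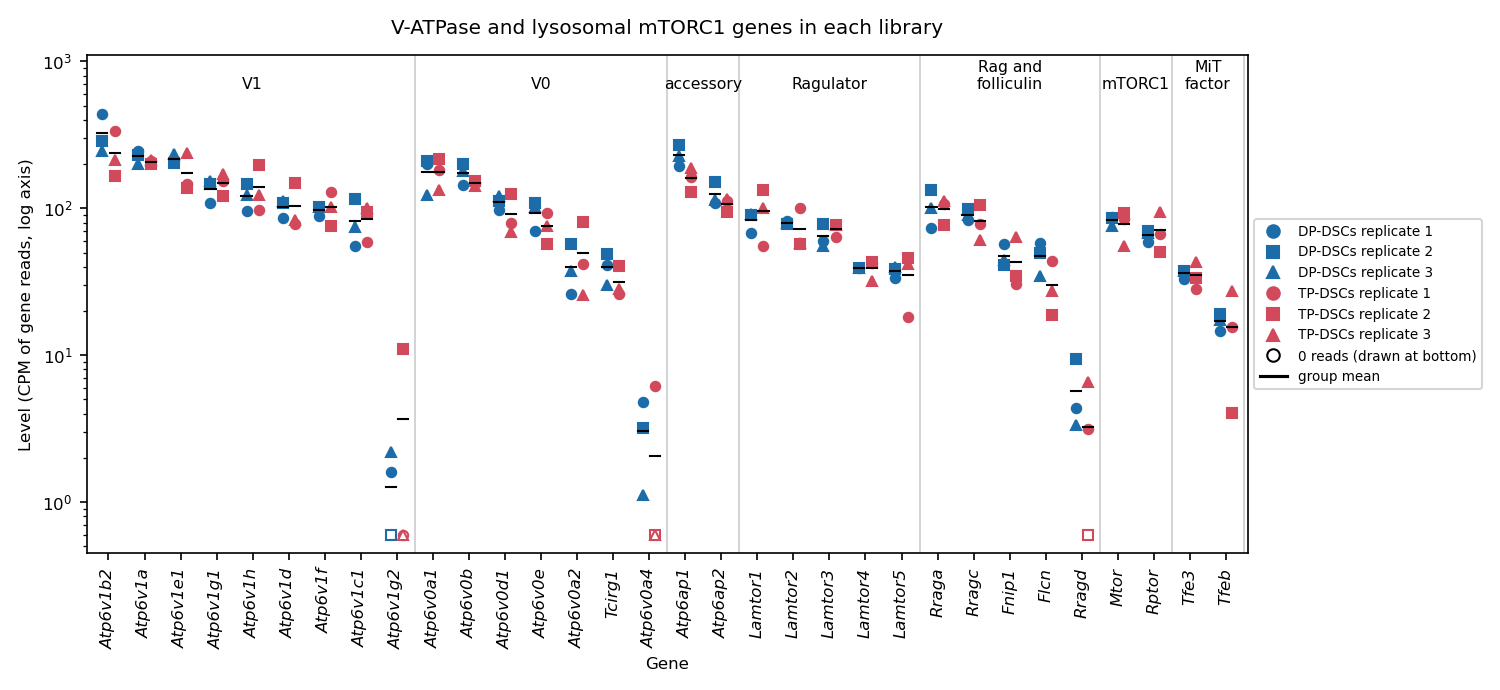
Level of each of the 32 genes with a mean of at least 1 CPM (x axis, grouped by role) in each library (y axis, CPM, log axis); symbols mark the library, bars the group mean, and open symbols libraries without reads. The groups overlap for every gene drawn except Atp6ap1, and Atp6v1g2, Atp6v0a4 and Rragd lie lowest.

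The 5 Ragulator genes, which form the scaffold that tethers the Rag GTPases to the lysosome, were all expressed and lay close to equal in the 2 populations. Their mean levels ran from 36.4 to 89.6 CPM, and 3 of 5 had a log2 fold change below 0, with a median of -0.01. Lamtor1, the lipid-anchored subunit that holds the complex on the membrane, stood at 67.4, 90.6 and 91.2 CPM in DP-DSCs and 55.5, 133 and 99.9 CPM in TP-DSCs (0.18 ± 0.30). TP-DSCs held both its lowest and its highest library, and without TP-DSCs replicate 2 the log2 fold change turned to -0.10. Lamtor3, the MP1 scaffold, which also binds MAPK components, stood at 59.8, 77.7 and 55.4 CPM in DP-DSCs and 63.6, 76.6 and 77.5 CPM in TP-DSCs. Its log2 fold change of 0.16 ± 0.20 (95% interval -0.31 to 0.63) was positive without any library in turn, from 0.06 to 0.26, yet small against its interval. Lamtor2, which pairs with Lamtor3, and Lamtor4 were tight within DP-DSCs, at 79.9 ± 2.04 and 39.2 ± 0.205 CPM (SD, n = 3). The TP-DSC means were 72.1 ± 24.7 and 39.2 ± 6.42 CPM (SD, n = 3). Lamtor5 averaged 37.4 ± 3.19 and 35.3 ± 14.9 CPM, its lowest value being 18.3 CPM in TP-DSCs replicate 1.

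All 5 Rag and folliculin genes had a log2 fold change below 0, none past the threshold. Flcn, folliculin, activates GTP hydrolysis by RagC and RagD and so lets mTORC1 act on TFEB and TFE3. It stood at 58.5, 49.4 and 34.9 CPM in DP-DSCs and 43.8, 18.7 and 27.5 CPM in TP-DSCs. TP-DSCs replicate 1 lay above DP-DSCs replicate 3, so the groups overlapped, and the log2 fold change was -0.65 ± 0.42 (95% interval -1.64 to 0.33; edgeR adjusted p = 0.999). Without TP-DSCs replicate 1 the value was -1.13 and without TP-DSCs replicate 2 it was -0.38, the ends of the range when each library was left out. The DP-DSC mean of its partner Fnip1 was 47.5 ± 8.24 CPM and the TP-DSC mean 42.9 ± 18.1 CPM (SD, n = 3 each; log2 fold change -0.19 ± 0.34). The paralogue Fnip2, outside the chosen set, went the other way, with 37.7, 26.2 and 19.5 CPM in DP-DSCs and 35.4, 55.6 and 44.3 CPM in TP-DSCs (0.66 ± 0.35; edgeR adjusted p = 0.999).

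Of the Rag GTPases, Rraga averaged 103 ± 30.3 and 98.8 ± 18.7 CPM and Rragc 90.5 ± 7.79 and 81.4 ± 22.3 CPM (DP-DSCs and TP-DSCs; SD, n = 3 each). RagA pairs with RagC or RagD, and Rragd is itself a known MiT target. Per kilobase, Rragc made up 96.9% ± 1.46 of the C and D forms in the DP-DSC libraries and 97.6% ± 2.65 in the TP-DSC libraries (SD, n = 3 each). Rragd stood at 4.39, 9.43 and 3.33 CPM in DP-DSCs and 3.13, 0 and 6.57 CPM in TP-DSCs, with no reads in replicate 2. Of 996 genes within 1.5-fold of its DP-DSC level, 37.3% had no reads in that library.

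The kinase complex itself did not separate the populations. Mtor stood at 87.9, 85.4 and 75.4 CPM in DP-DSCs and 84.9, 93.6 and 55.8 CPM in TP-DSCs (log2 fold change -0.10 ± 0.26; 95% interval -0.70 to 0.51). Rptor, the substrate-recruiting subunit raptor, stood at 59.1, 69.7 and 67.7 CPM in DP-DSCs and 67.3, 50.4 and 94.6 CPM in TP-DSCs (log2 fold change 0.10 ± 0.26; 95% interval -0.52 to 0.72). For Rptor, too, TP-DSCs held the lowest and the highest library. Transcript levels do not measure mTORC1 activity, which depends on phosphorylation and on where the complex sits.

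Of the MiT factors, Tfe3 was the most abundant and Tfeb the most variable. Tfe3 stood at 33.1, 37.6 and 37.7 CPM in DP-DSCs and 28.4, 33.7 and 43.2 CPM in TP-DSCs (-0.07 ± 0.27; 95% interval -0.71 to 0.57). Tfeb stood at 14.7, 19.1 and 17.2 CPM in DP-DSCs and 15.6, 4.06 and 27.3 CPM in TP-DSCs (-0.13 ± 0.73; 95% interval -1.83 to 1.57). TP-DSCs replicates 2 and 3 were the lowest and the highest of the 6 libraries for Tfeb, and its log2 fold change was 0.33 without replicate 2 and -0.72 without replicate 3. Per kilobase, Tfeb made up 40.4% ± 1.69 of the 3 factors in the DP-DSC libraries and 35.6% ± 18.1 in the TP-DSC libraries (SD, n = 3 each). Mitf, the founding member, known from melanocytes, had 2 reads in DP-DSCs replicate 1 and none elsewhere.

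Across the whole set, 0 of the 33 tested genes had an adjusted p under 0.05 in edgeR. That rule called 0.0% of the 11925 genes tested. At an unadjusted p under 0.05 there were 2 of the 33, Atp6v1b1 and Atp6ap1, both lower in TP-DSCs, against 6.1% of all genes tested (4.67% lower and 1.43% higher). The same 2 of the 33 were those whose libraries did not overlap between groups, against 12.4% of all genes tested (8.56% lower and 3.87% higher). Neither count stood above the background. Among the libraries numbered 4140 alone the groups did not overlap for 11 tested genes of the set, against 40.6% of all genes tested there. DESeq2 on the same genes called 0 of the 33 and 0.78% of all, and on all genes with reads 1 gene of the set (Atp6v1b1) and 1.76% of all; limma-voom called 0 of the 33, with 2 at an unadjusted p under 0.05.

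The log2 fold change was below 0 for 23 of the 32 genes with at least 1 CPM (71.9%) and above 0 for 9, with a median of -0.13. Among all tested genes with at least 1 CPM, 50.7% were below 0, with a median of -0.01; among all 11925 tested it was 51.8%. The difference within the libraries numbered 3840 was below 0 for 17 of 32 genes (median -0.04), and within those numbered 4140 for 24 of 32 (median -0.20). The sign was opposite in the 2 numbers for 17 genes, below 0 in both for 12 and above 0 in both for 3, namely Atp6v1c1, Atp6v1h and Lamtor3. The 95% interval lay within 1 log2 unit of 0, a 2-fold change either way, for 23 of the 32 genes, and its median half-width was 0.64.

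**Figure D3:**
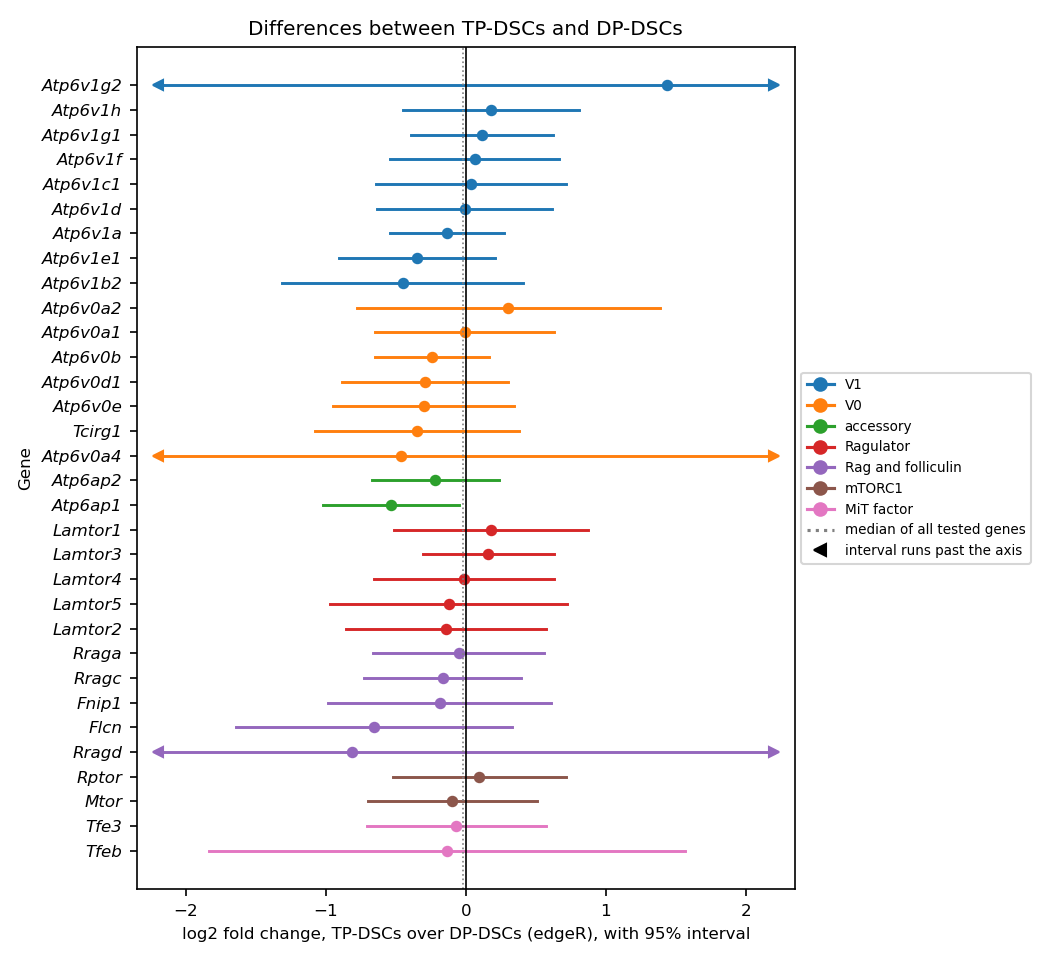
Log2 fold change of TP-DSCs over DP-DSCs (x axis; points, edgeR) with its 95% interval (lines) for the 32 genes with at least 1 CPM (y axis, coloured by role). Of these intervals only that of Atp6ap1 leaves out 0, before adjustment, and those of Atp6v1g2, Atp6v0a4 and Rragd run past the axis.

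**Figure D4:**
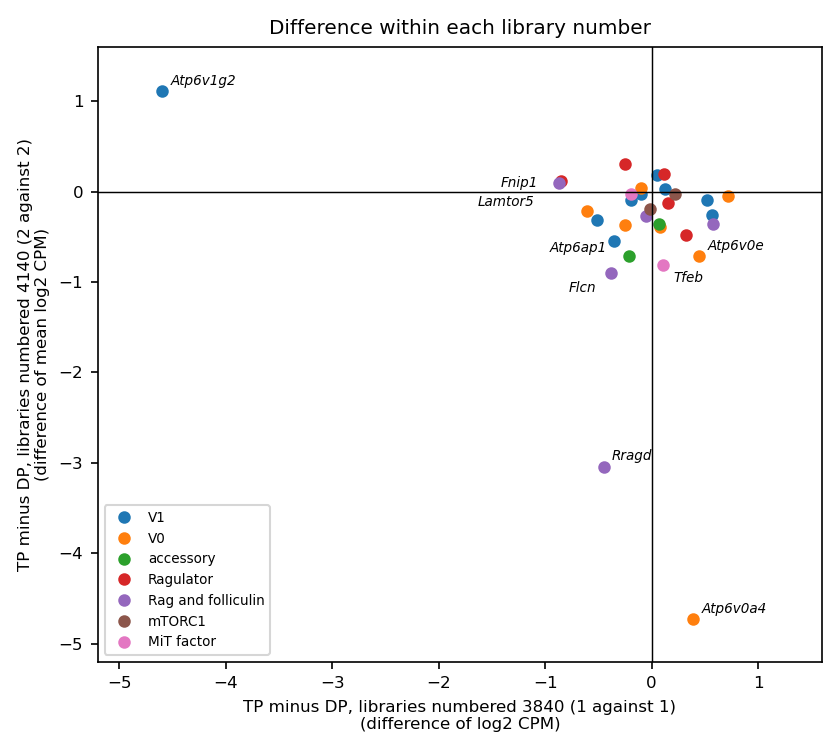
Difference between TP-DSCs and DP-DSCs in log2 CPM between the 2 libraries numbered 3840 (x axis) and among the 4 numbered 4140 (y axis), 1 point per gene for the same 32 genes. For 17 genes the sign differs between the numbers, and the points far from the centre are the genes with libraries without reads.

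Variation within groups was described by the coefficient of variation, with no test and no matching on abundance. The median coefficient of variation of its 32 genes was 17.2% in DP-DSCs and 29.5% in TP-DSCs, against 21.8 and 38.9% for all tested genes with at least 1 CPM, and single genes of the set ranged from 0.523 to 89.7% and from 2.86 to 173%. TP-DSCs replicate 2 was the lowest library for 12 of the 32 genes and the highest for 11, so it stood at an end for most of them. It also had the fewest gene reads (17015581) and the highest share of reads in no gene (20.3%, against 14.1 to 19.2% in the others). Their part in this was not tested. Per kilobase, the most abundant transcripts were Atp6v0b (174 and 148 CPM per kilobase in DP-DSCs and TP-DSCs), Atp6v1e1 (166 and 133), Atp6v1f (121 and 127), Atp6v1g1 (120.0 and 131) and Lamtor2 (119.7 and 107.9). Mtor and Rptor lay far lower, at 9.68 and 9.93 CPM per kilobase in DP-DSCs and 9.12 and 10.7 in TP-DSCs, and the order of neighbouring genes on this scale is within their spread.

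The genes around the set were read from lists of known regulators, substrates and targets. Of 82 listed genes in the files 78 were tested, of which 0 passed in edgeR, and 5 had an unadjusted p under 0.05, against 6.1% of all genes tested. The inhibitory GATOR1 genes (Depdc5 0.35 ± 0.32 and Nprl2 -0.44 ± 0.41, log2 fold changes with SE) and the GATOR2 genes that oppose them (Mios 0.56 ± 0.48 and Sec13 -0.24 ± 0.33) went in both directions. So did the genes of the Rheb switch (Tsc1 -0.29 ± 0.32 and Tsc2 0.17 ± 0.22). Of the 4 KICSTOR genes that anchor GATOR1, 3 were below 0 (among them Itfg2 -0.88 ± 0.88 and Kptn -0.49 ± 1.63) and 1 above. Among mTORC1 substrates, the translation repressors Eif4ebp1 and Eif4ebp2 stood at 0.27 ± 0.30 and 0.23 ± 0.33, and among other complex subunits Rictor at 0.23 ± 0.27 and Prr5 at -0.83 ± 1.05. Of the pump's regulators, the TLDc protein genes Oxr1 and Ncoa7 stood at 0.40 ± 0.23 and 0.64 ± 0.47, and the median of the 9 was 0.03. In the amino acid sensor list, Sesn1 stood at 0.60 ± 0.67, while Gatsl3 (Castor1, an arginine sensor) had 4.97, 1.59 and 3.44 CPM in DP-DSCs and no reads in TP-DSCs. Its DP-DSC mean was 3.33 CPM. Of the 761 genes within 1.5-fold of 3.04 CPM in DP-DSCs, 44.2, 55.7 and 59.1% lacked reads in replicates 1, 2 and 3 of TP-DSCs. In all 3 replicates 16.6% lacked them, and the part of library complexity was not tested. The edgeR adjusted p of Gatsl3 was 0.121, and DESeq2 on the same genes called it (adjusted p = 0.0196).

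The lowest median among these lists was that of lysosomal genes of the CLEAR network, the known targets of TFEB. Of its 31 tested genes 25 had a log2 fold change below 0, with a median of -0.32, against -0.13 in the V-ATPase and mTORC1 set and -0.02 over all genes tested. None passed in edgeR and 4, all lower in TP-DSCs, had an unadjusted p under 0.05, against 4.67% of all genes tested that were lower at that p. On CPM, every TP-DSC library lay below every DP-DSC library in 8 of 31, namely Ctsb, Gaa, Ctsa, Lamp1, Psap, Ctsd, Sqstm1 and Vps11. The share over all genes tested was 8.56%, with no matching on abundance. For Sqstm1 the separation rested on 283 CPM in TP-DSCs replicate 1 against 284 CPM in DP-DSCs replicate 1. Divided by the TMM factors (0.929 and 0.949), these values change order and the groups overlap. Ctsb, the lysosomal protease cathepsin B, stood at 354, 316 and 333 CPM in DP-DSCs and 234, 194 and 197 CPM in TP-DSCs (-0.69 ± 0.20; edgeR adjusted p = 0.255, DESeq2 adjusted p = 0.0905). Gaa, the lysosomal alpha-glucosidase, stood at 122, 122 and 115 CPM in DP-DSCs and 93.5, 70.1 and 90.7 CPM in TP-DSCs (-0.51 ± 0.21; edgeR adjusted p = 0.751). Whether this list differs from the V-ATPase and mTORC1 set was not tested. At the starts of the 25 CLEAR genes with a RefSeq promoter, the core TCACGTGA was present at 6 (24.0%), against 9.09% in the set and 1.13% of all genes. The list was made of genes already known as CLEAR targets, so this share tests nothing about TFEB in these cells.

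**Figure D5:**
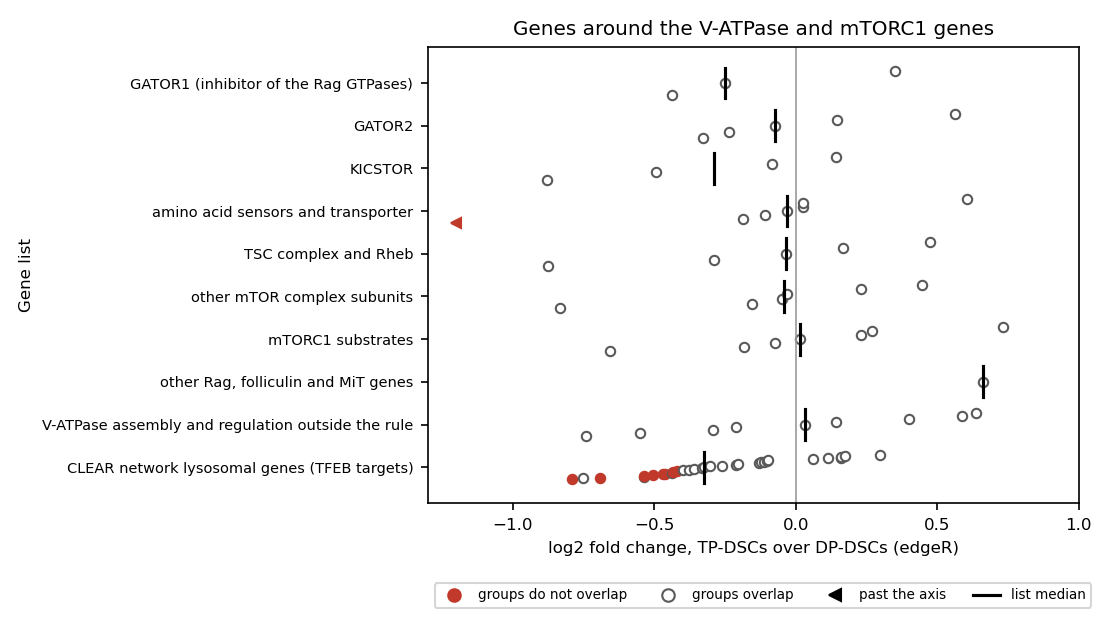
Log2 fold change of TP-DSCs over DP-DSCs (x axis, edgeR) for the tested genes of each list around the set (y axis), with bars for list medians; filled points are genes whose libraries do not overlap between groups. On CPM the CLEAR list holds 8 such genes, all lower in TP-DSCs, and Gatsl3 lies past the axis.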

How the data were processed

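Per the labels' protocols, polyA-selected stranded libraries were made from 3 DP-DSC and 3 TP-DSC samples. Raw whole-number read counts by gene symbol were deposited by the authors, unscaled as far as the values show. The submitters' processing notes name STAR 2.7.3a, Partek, DESeq2 3.5 and the build mm10. What each tool did, and whether counting used strand, is not given in the sources used here. Rows for reads in no gene (14.1 to 20.3% of reads) and ambiguous reads (1.09 to 1.86%) were left out. The subtype label gave the groups, and replicates are numbered as deposited, without pairing.

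CPM was taken over gene reads. Counts were fitted in R 4.3.3 with edgeR 4.0.16 (filterByExpr with a minimum count of 10 and total of 15, TMM, quasi-likelihood F test, group as the only term, Benjamini-Hochberg over 11925 genes), after a test on simulated data. That test only checked that the code ran as meant. It gave every simulated gene the same dispersion, so it does not measure which differences these libraries could detect. The SE is the log2 fold change over the square root of F. Differences within a library number use log2 CPM with a prior count of 2. Alternatives used DESeq2 1.42.0, limma 3.58.1, other scalings, no filter, the library number as a block, the libraries numbered 4140 alone, and each library left out. Lengths, coordinates and shared 50-base stretches came from GENCODE M21 (GRCm38, the assembly of mm10). Intervals and floors cover counting or replicate error only.

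Full values were given for the 5 genes with the smallest p per direction among those with at least 1 CPM, genes with separated libraries, the leading isoforms, Mtor, Rptor and the MiT factors, and the 2 smallest p per list. Atp6v1a, Atp6ap2, Atp6v0a4 and Rragd were given library by library outside these rules. Rragb, the 8 separated CLEAR genes and the per-kilobase leaders were named after their values were seen. The gene set and lists were chosen with earlier results of these data known.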

Additional observations from a re-analysis of the deposited data

How the results depend on the processing

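Over 14 alternatives, no tested gene of the set passed except Atp6v1b1 in DESeq2 on all genes with reads. The count of all genes called was 0 in edgeR and limma-voom under every alternative, 93 in DESeq2 on the same genes and 267 in DESeq2 on all genes with reads, where 1 gene of the set was called; the listed genes around the set had 1 and 2 calls in those DESeq2 fits. At an edgeR unadjusted p under 0.05 the set held 2 of 33 genes, against 728 of 11925 over all genes tested. Among the libraries numbered 4140 alone it held 4, against 1473 of 12066. Without each library in turn it held from 1 to 6, the highest without TP-DSCs replicate 1. Over all genes those fits ran from 619 of 12152 to 1811 of 12513, the latter also without TP-DSCs replicate 1. Genes with separated libraries numbered 2, 11 in the libraries numbered 4140 alone (against 40.6% of all genes tested there, since 2 against 2 libraries separate readily), and from 3 to 8 without each library. The share over all genes was not computed for the fits without a library, so those counts have no background. The cause was not tested, and fewer libraries separate more easily by construction. The median log2 fold change over the 33 tested genes was -0.13 and ranged from -0.24 to -0.11. The median over all genes tested was -0.16 with no filter, -0.15 in limma-voom, -0.12 in DESeq2 on all genes with reads and -0.11 without TP-DSCs replicate 1, against -0.02; from 18 to 24 of the 32 genes lay below 0 over the alternatives. With the library number, which libraries of both groups share, as a block, 0 genes were called between TP-DSCs and DP-DSCs. The effect of the number itself was not tested. No paired analysis was possible because replicates were numbered as deposited and, beyond the library number, the labels match no library of one group with one of the other.

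Of 294 alternative values of the 21 tested genes of the set picked by the naming rules, 23 had the opposite sign. Of these, 16 came with a library left out. Other genes of the set are not in this count, among them Atp6v0a4, which ran from -9.45 to 0.13 without each library in turn. Atp6v0a1 turned to 0.0116 with DESeq2 size factors, 0.0115 in DESeq2 on the same genes, 0.0117 in DESeq2 on all genes with reads and 0.0253 in the libraries numbered 4140 alone. In the last, Atp6v1g1 turned to -0.0968 and Atp6v1c1 to -0.0172; Atp6v1g2 turned to -1.47 in limma-voom. Without each library in turn the log2 fold change ran from -0.0256 to 0.27 for Atp6v1g1, -0.22 to 0.18 for Atp6v0a1, -0.18 to 0.30 for Atp6v1c1, -0.21 to 0.0027 for Tfe3, -0.12 to 0.33 for Atp6v1h, -0.19 to 0.63 for Atp6v0a2, -0.10 to 0.41 for Lamtor1, -8.28 to 2.07 for Atp6v1g2, -0.72 to 0.33 for Tfeb, -0.24 to 0.12 for Mtor and -0.12 to 0.31 for Rptor. With 3 libraries per group the median half-width of the unadjusted 95% interval was 0.64, and larger differences than that also missed the adjusted threshold.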
